A study of Mus musculus with 4 samples.

Results

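The 4 Hox gene clusters of the mouse genome were examined through 38 Hox genes, of which 10 each lie in HoxA and HoxB and 9 each in HoxC and HoxD. Membership was set by position, as all CpGs in a window around each cluster, and no methylation value enters that rule. The windows were chr6:52100000-52215000 for HoxA, chr11:96050000-96232000 for HoxB, chr15:102745000-102872000 for HoxC and chr2:74490000-74605000 for HoxD, in NCBIM37 (mm9) coordinates. They held 2023 of the 629262 CpG positions with at least 5 methylation calls in all 4 libraries. They also held 85 of 17692 CpG runs, where a run is a row of at least 10 positions, each with at least 5 calls in both dopaminergic (DA) neuron libraries, with gaps under 100 bp.

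DNA methylation was measured by reduced representation bisulfite sequencing (RRBS), which cuts DNA with MspI and so reads mainly CpG-rich DNA, with 1 library per group. iPSCs were reprogrammed from embryonic fibroblasts of Pitx3 Gfp/+ mice with retroviral Oct4, Klf4, Sox2 and cMyc, and iPSC-DA neurons were the PITX3-GFP-positive cells sorted after such iPSCs had been differentiated on MS5 stromal cells with Noggin and a TGF-β inhibitor. NESTIN-GFP precursors came from an iPSC line with another reporter, Nestin Gfp/+, and their sample label calls them neurons, so the precursors differ from the other 3 libraries in strain as well as in stage. mdDA neurons were primary PITX3-GFP-positive midbrain neurons sorted from Pitx3 Gfp/+ embryos at E14.5. A PITX3 or NESTIN reporter selects all cells that express it, and cell type markers could not be read from DNA methylation. The libraries held 68545752 calls in iPSCs, 31419979 in NESTIN-GFP precursors, 79648099 in iPSC-DA and 72993474 in mdDA neurons. With no replicate library there is no spread between replicates, and Fisher's exact tests below compare these libraries and not the conditions.

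Hox genes encode homeodomain transcription factors that give cells their position along the head-to-tail axis, and within a cluster the genes lie in the order in which they are used along that axis. Their CpG-rich DNA is held silent by Polycomb proteins in pluripotent cells and in tissue anterior to their domains, usually without DNA methylation. Hox genes are used in the hindbrain and spinal cord, while the midbrain, where mdDA neurons arise, lies anterior to their domains.

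In iPSCs and in mdDA neurons all 4 clusters were nearly free of methylation, and in iPSC-DA neurons all 4 were methylated at an intermediate level. In HoxA the mean methylation level over 541 positions was 6.18% in iPSCs, 19% in NESTIN-GFP precursors, 28.7% in iPSC-DA and 7.05% in mdDA neurons. In HoxB it was 8.28%, 26.2%, 38.8% and 8.46% over 471 positions, in the same order of libraries. In HoxC it was 9.51%, 22.8%, 30.6% and 8.14% over 348 positions. In HoxD it was 6.52%, 22.9%, 39.4% and 6.66% over 663 positions. Over these positions the upper pair had the same order in the 4 clusters, with iPSC-DA neurons highest and NESTIN-GFP precursors next. iPSCs and mdDA neurons were both under 10% in every cluster. Outside runs, the precursors exceeded iPSC-DA neurons in HoxA (36.4% against 30.9%) and HoxB (47.6% against 38.3%). They were lower there in HoxC (33.0% against 36.9%) and HoxD (35.9% against 56.1%). HoxB and HoxD had higher means in iPSC-DA neurons than HoxA and HoxC. The highest single run was not lower in HoxC (55.7%) than in HoxB (55.4%). Pooled over runs outside the low stretches described below, the levels were 35.0% in HoxA, 37.8% in HoxB, 35.7% in HoxC and 43.5% in HoxD.

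Over the positions covered in both libraries, iPSC-DA neurons exceeded mdDA neurons by 20.4 percentage points in HoxA (95% interval 16.6 to 24.3, 717 positions), 29.3 in HoxB (24.8 to 33.4, 672 positions), 21.3 in HoxC (16.7 to 26.0, 504 positions) and 29.7 in HoxD (26.3 to 33.1, 995 positions). These Newcombe intervals treat each position as 1 observation that is either methylated or not. They ignore that the same positions were read in both libraries, so they are only a rough guide. They do not cover the spread between animals or cultures. Reads carry no molecular identifiers and PCR copies are not independent molecules, so the intervals for pooled calls given below cover counting error only. Over the rest of the genome the same difference was 7.36 points, and over 200 kb on either side of the windows it was 18.1 points. mdDA neurons and iPSCs differed by 0.717 points in HoxA, -0.273 in HoxB, -0.758 in HoxC and 0.764 in HoxD. Each of these intervals included 0, but as they ignore the pairing of positions this does not show that the libraries were alike. In the rest of the genome mdDA neurons exceeded iPSCs by 6.85 points. NESTIN-GFP precursors exceeded iPSCs by 17.3 points over all Hox positions, beside 18.1 points in the rest of the genome.

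The Hox windows lacked the highly methylated DNA of the rest of the genome. In mdDA neurons 0.247% of Hox positions were above 80% methylation, against 22.2% in the rest of the genome, and in iPSC-DA neurons the shares were 4.10% and 20.4%. Hox positions in iPSC-DA neurons were mostly intermediate, with 67.5% of them between 20% and 80% and 29.7% between 40% and 60%. In the rest of the genome 34.8% and 11.7% of positions lay in these ranges. Positions outside runs showed how far the clusters stood apart from ordinary sparse DNA. There the mean in mdDA neurons was 12.7% in the Hox windows and 66.6% in the rest of the genome, and in iPSC-DA neurons it was 39.4% and 68.6%. The 200 kb flanks lay between, at 39.9% in mdDA neurons and 52.3% in iPSC-DA neurons.

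**Figure D1:**
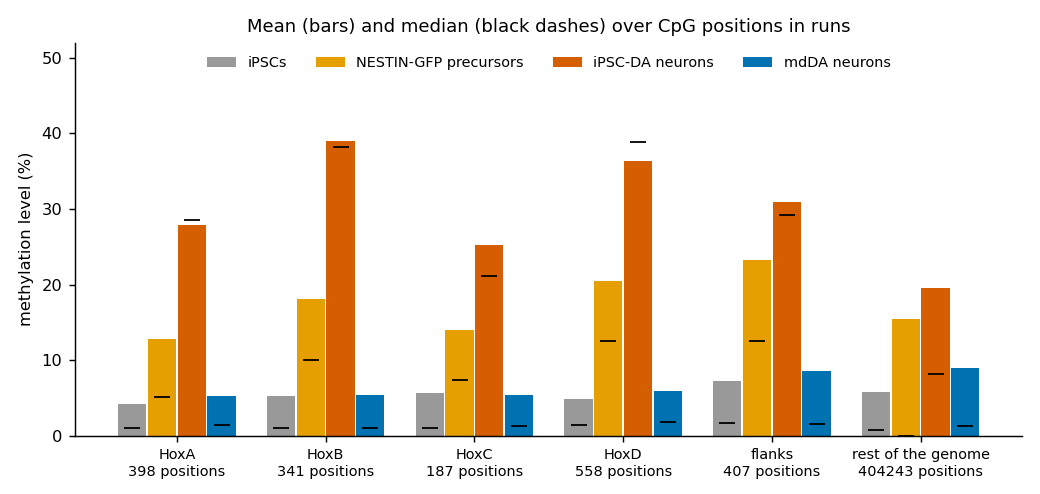
Mean methylation level in percent over CpG positions within runs (bars) and the median (black dashes) in each Hox cluster, in the 200 kb on either side of the windows (flanks) and in the rest of the genome, for the 4 libraries. iPSC-DA neurons had the highest bar in all sets plotted, from 25.2% in HoxC to 39.0% in HoxB among the clusters, against 19.5% in the rest of the genome, while iPSCs and mdDA neurons stayed under 6% in the 4 clusters.

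Pooled over each run, the 85 Hox runs had a median level of 4.81% in iPSCs, 39.9% in iPSC-DA and 5.61% in mdDA neurons. All 85 were under 20% in mdDA neurons and 84 were in iPSCs. Only 19 were under 20% in iPSC-DA neurons, while 26 lay from 20% to under 40%, 38 from 40% to 60% and 2 above 60%. In NESTIN-GFP precursors, 76 runs had at least 5 covered positions, with a median of 12.0%, and 54 of them were under 20%. Of 15696 runs elsewhere that were under 20% in both iPSCs and mdDA neurons, 32.8% were at 20% or more in iPSC-DA neurons, and of the 84 such Hox runs 77.4% were. In NESTIN-GFP precursors the same shares were 21.8% elsewhere and 28.0% in the Hox windows, so the Hox runs stood less far from the background there.

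**Figure D2:**
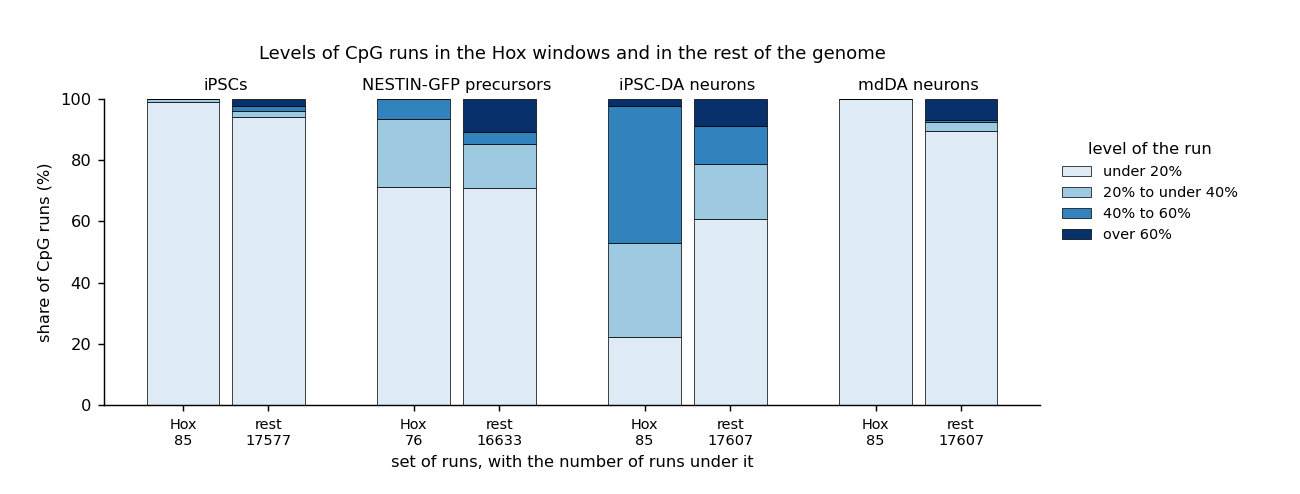
Share of CpG runs in percent, in 4 bands of methylation level, for the Hox windows and the rest of the genome in each library (numbers of runs under the bars). In iPSC-DA neurons 44.7% of the Hox runs lay between 40% and 60%, against 12.2% in the rest of the genome, and all Hox runs in mdDA neurons lay under 20%.

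A run was called where its adjusted p in Fisher's exact test was under 0.05 and its level differed by at least 20 points. Against mdDA neurons, 62 of 85 Hox runs were called higher in iPSC-DA neurons, or 72.9%, where 27.6% of all 17692 runs were called. By cluster these were 14 of 21 runs in HoxA, 19 of 22 in HoxB, 5 of 11 in HoxC and 24 of 31 in HoxD. No Hox run was called lower, as were 0.26% of all runs. Adjusted p alone was under 0.05 in 71 of 85 Hox runs, all higher in iPSC-DA neurons. In the rest of the genome it was under 0.05 in 8957 of 17607 runs, of which 7632 were higher. Runs in the 200 kb flanks were also often called, 18 of 30, so the high share was not limited to the windows. The flanks of HoxD were an exception to this in level, with a mean in runs of 5.70% in iPSC-DA neurons over 42 positions, against 36.3% within the HoxD window. In the flanks of HoxA, HoxB and HoxC that mean was between 24.1% and 42.5%.

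Against iPSCs, 62 of 85 Hox runs were called higher in iPSC-DA neurons, with 33.8% of all runs called, and none lower, with 0.0963% of all. NESTIN-GFP precursors were called higher than iPSCs in 15 of 76 Hox runs or 19.7%, beside 21.3% of all runs, and lower in none, with 0.012% of all. With the strands of a CpG merged the shares called higher were 28.4% of Hox runs and 17.5% of all runs, the opposite order. On the logit scale 4 of 76 Hox runs were called lower. The share of all runs called lower on that scale is not given here, so the 4 are not read as particular to the Hox windows. The 15 were 3 runs in HoxA, 4 in HoxB and 8 in HoxD. mdDA neurons were called higher than iPSCs in none of the 85 Hox runs, where 6.75% of all runs were called, and lower in none, where 0.345% were. The differences between mdDA neurons and iPSCs in single Hox runs ran from -5.42 to 5.21 points. Adjusted p was under 0.05 in 21 of the 85 Hox runs, beside 6144 of 17577 runs in the rest of the genome. These comparisons share libraries, so their counts are not separate evidence.

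The run with the largest excess of iPSC-DA over mdDA neurons was named in each cluster, among runs with 20 or more positions that were read 10 or more times in both libraries. In HoxA this was chr6:52153846-52154224, with levels of 4.50% in iPSCs, 15% in NESTIN-GFP precursors, 48.8% in iPSC-DA and 5.08% in mdDA neurons. It lies 4636 bp downstream of the start of Hoxa6. In HoxB it was chr11:96148138-96148481, at 3.95%, 7.76%, 45.8% and 4.88% in the same order. In HoxC it was chr15:102844714-102844900, at 4.09%, 7.81%, 45.9% and 4.10%. In HoxD it was chr2:74495870-74496058, at 2.39%, 2.03%, 50.1% and 3.60%. In these last 3 runs the precursors were under 10%, close to iPSCs, while iPSC-DA neurons stood between 45.8% and 50.1%.

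Among runs of that size, 2 in HoxA, 1 in HoxC and 2 in HoxD were higher in mdDA than in iPSC-DA neurons and none in HoxB, and none of them was called. The largest such difference, iPSC-DA minus mdDA neurons, was -1.76 points at chr6:52176124-52176266 in HoxA, where iPSC-DA neurons were at 7.36% and mdDA neurons at 9.12%. In HoxC it was -0.466 points at chr15:102812176-102812582, and in HoxD -0.724 points at chr2:74543758-74543839. All 3 runs lay in stretches of low methylation described below.

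A few further runs are given that were chosen after their values were seen. The highest of all 85 in iPSC-DA neurons was shorter, at chr2:74542160-74542244 in HoxD, with 10 positions. It was at 11.4% in iPSCs, 11.6% in NESTIN-GFP precursors, 70.8% in iPSC-DA (66.7 to 74.6, Wilson 95% interval) and 8.55% in mdDA neurons. By the rule for named runs, the only run at 20% or more in iPSCs or mdDA neurons was chr11:96172047-96172179 in HoxB. It was at 22.7% in iPSCs, 29.3% in NESTIN-GFP precursors, 33.2% in iPSC-DA and 17.3% in mdDA neurons, and it was not called in any comparison. In NESTIN-GFP precursors the highest run with at least 5 covered positions was chr11:96228156-96228308 at the far end of HoxB, at 59.8%, beside 55.4% in iPSC-DA neurons, 8.86% in iPSCs and 10.7% in mdDA neurons.

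Methylation in iPSC-DA neurons did not cover the clusters evenly. Among the runs in order along each window, 16 formed 4 stretches of at least 3 neighbours that were all under 20%. This rule was set after the levels were seen, so the low level is given as a description with no test. In HoxA 5 neighbouring runs spanned 25.5 kb at chr6:52158799-52184280 and stood between 4.87% and 7.65%. In HoxC 4 runs spanned 39.0 kb at chr15:102773549-102812582 and stood between 3.76% and 7.14%. HoxD held 4 runs in 1.18 kb at chr2:74535652-74536826, between 6.18% and 17.0%, and 3 runs in 7.50 kb at chr2:74542810-74550310, between 3.65% and 5.56%. Gaps between runs were 104 to 145 bp in the former of these, and 183 bp between the nearest runs of the latter. A wider gap limit than 100 bp would join such runs and could leave fewer than 3 neighbours. HoxB held no such stretch, and its lowest run stood at 18.8%. A single low run, also picked after its value was seen, at chr15:102858225-102858585 in HoxC stood at 6.72% in iPSC-DA neurons while NESTIN-GFP precursors were at 25%, the reverse of the order in the clusters as a whole.

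**Figure D3:**
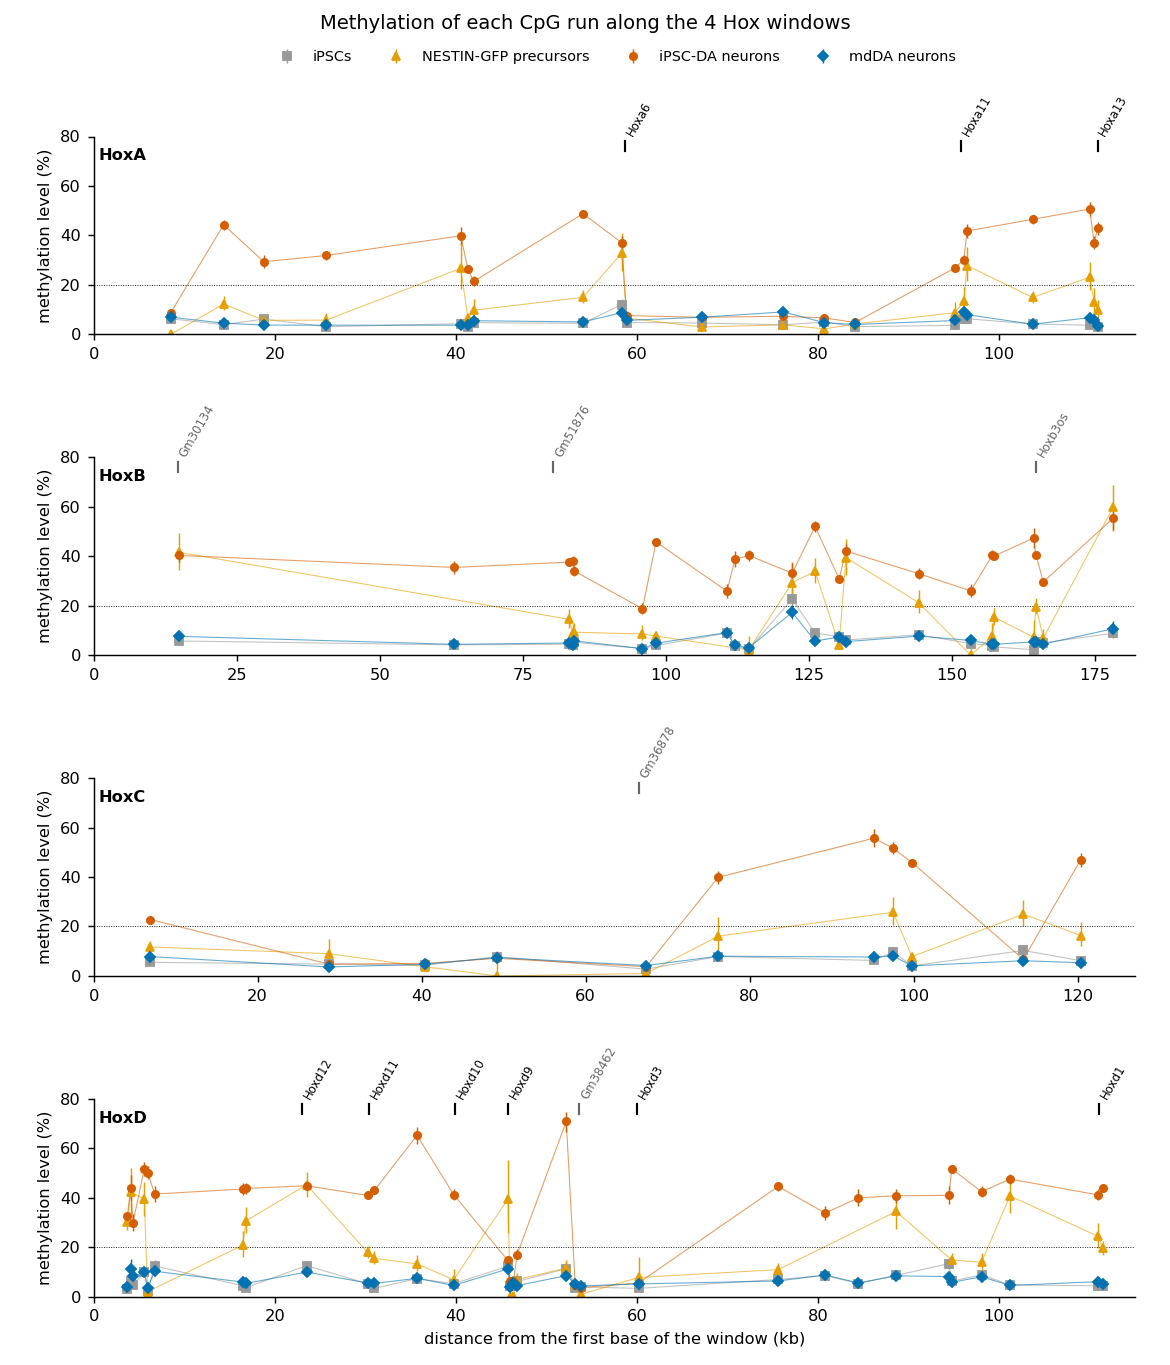
Methylation level in percent of each CpG run against the distance in kb from the first base of its window, in 4 panels for HoxA to HoxD, with Wilson 95% intervals, for runs with at least 5 covered positions in the library. Ticks above mark placed gene starts (Hox genes in black, other genes in grey) and the dotted line marks 20%. iPSCs and mdDA neurons run along the bottom of all panels, while iPSC-DA neurons stand between 20% and 71% in most runs and drop under 20% in stretches of HoxA, HoxC and HoxD.

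The stretches were located by placed gene starts. By the order of genes in the RefSeq annotation, the HoxA stretch began just upstream of the start of Hoxa6 and ended before Hoxa11, an interval in which Hoxa7, Hoxa9 and Hoxa10 lie. In HoxC the last low run lay beside the start of Gm36878, an uncharacterised gene whose start falls within Hoxc9, and the runs before it lay on the side of Hoxc10. In HoxD the short stretch covered the start of Hoxd9, and the other ran from a start of Gm38462 within Hoxd8 to the start of Hoxd3. The highest run of all, at 70.8%, lay between these HoxD stretches, 566 bp from the nearer one.

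Borders were steep in places. Around the start of Hoxa6 a run at chr6:52158238-52158419 stood at 12.1% in iPSCs, 32.9% in NESTIN-GFP precursors, 37.1% in iPSC-DA and 8.82% in mdDA neurons. The next run, 380 bp further and upstream of the same start, stood at 4.84%, 6.63%, 7.65% and 5.70%. Across this gap the level in iPSC-DA neurons thus dropped close to that of mdDA neurons.

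Further measures were read in the same stretches, and of these the rule did not use the levels in the other libraries. NESTIN-GFP precursors were at 3.91% over the runs of the 4 stretches (3.46 to 4.42, 293 positions) and at 15.9% over the other 69 Hox runs (15.5 to 16.4, 1192 positions). One short run at the start of Hoxd9, with 6 covered positions, was the exception at 39.5% in the precursors. iPSCs were at 4.21% and 5.33%, and mdDA neurons at 5.33% and 5.81%, in and outside the stretches. Positions between the borders of the stretches but outside runs had a mean of 17.9% in iPSC-DA neurons (182 positions), against 47.7% for such positions elsewhere in the windows (767 positions). In NESTIN-GFP precursors the means of positions outside runs were 34.8% between the borders and 43.3% elsewhere. In HoxA the order was the reverse, with 39.6% between the borders and 35.2% elsewhere in the window. In HoxC they lay close together, at 42.4% and 47.0%. Between the borders of the HoxD stretches the means were 0.901% and 2.01% over 37 and 28 positions, and these lower the mean over all stretches. The level in iPSC-DA neurons was the value that the rule used. Over the runs at Hoxd9 it was 9.80%, beside 6.05% in mdDA neurons, given as a description with no test. Runs in and outside the stretches were alike in density, with medians of 11.8 and 10.2 covered positions per 100 bp, and their medians of calls in iPSC-DA neurons were 2008 and 1603.

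Gene starts were placed by the CpG pattern of their RefSeq promoter sequences, since the positions carry no gene names. Of the 38 members, 22 had a promoter sequence and 7 were placed by a search of their whole chromosome, all within their own window: Hoxa6, Hoxa13, Hoxd1, Hoxd9, Hoxd10, Hoxd11 and Hoxd12. A search of the window alone, added after the data were seen, placed Hoxa11 and Hoxd3 as well. The other 13 with a sequence were not placed, and no start of a HoxB or HoxC member was. All 8432 neighbouring pairs among 8451 starts placed genome-wide stood in the order of the annotation.

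The placed promoters are shown for the start with the largest and the smallest difference between iPSC-DA and mdDA neurons in HoxA (Hoxa13 and Hoxa6), for the largest in HoxD and the smallest there with covered CpGs (Hoxd10 and Hoxd9), and for the pair with the most covered CpGs (Hoxd11 and Hoxd1), chosen after their values were seen. Each line gives the 250 bases before the start, 5′ to 3′ on the strand of the gene, from RefSeq (GRCm38.p6), and capitals mark CpGs covered by at least 5 calls in all 4 libraries on at least 1 strand.
Hoxa13: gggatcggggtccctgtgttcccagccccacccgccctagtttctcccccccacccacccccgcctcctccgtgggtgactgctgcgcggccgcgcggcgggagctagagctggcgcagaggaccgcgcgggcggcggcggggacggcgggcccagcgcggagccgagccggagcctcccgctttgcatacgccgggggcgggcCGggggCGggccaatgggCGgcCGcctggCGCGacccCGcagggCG
Hoxa6: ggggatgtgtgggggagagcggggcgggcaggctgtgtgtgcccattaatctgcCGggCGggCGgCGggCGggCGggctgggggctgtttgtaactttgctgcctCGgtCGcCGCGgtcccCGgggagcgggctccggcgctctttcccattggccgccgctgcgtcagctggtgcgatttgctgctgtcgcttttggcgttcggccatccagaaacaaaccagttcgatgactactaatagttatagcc
Hoxd10: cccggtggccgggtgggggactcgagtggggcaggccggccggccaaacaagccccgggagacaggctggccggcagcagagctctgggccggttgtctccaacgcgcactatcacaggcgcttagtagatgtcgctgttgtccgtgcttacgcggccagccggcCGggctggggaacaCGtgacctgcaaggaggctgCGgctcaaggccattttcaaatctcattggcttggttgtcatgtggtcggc
Hoxd9: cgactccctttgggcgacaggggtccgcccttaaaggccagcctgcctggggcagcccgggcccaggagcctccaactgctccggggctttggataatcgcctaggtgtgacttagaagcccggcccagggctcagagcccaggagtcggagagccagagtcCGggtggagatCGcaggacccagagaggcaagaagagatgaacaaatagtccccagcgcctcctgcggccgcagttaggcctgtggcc
Hoxd11: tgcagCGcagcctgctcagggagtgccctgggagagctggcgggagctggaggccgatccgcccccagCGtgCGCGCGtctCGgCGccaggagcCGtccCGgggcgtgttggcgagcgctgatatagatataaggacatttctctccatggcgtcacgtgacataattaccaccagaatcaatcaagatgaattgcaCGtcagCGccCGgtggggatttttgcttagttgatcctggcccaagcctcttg
Hoxd1: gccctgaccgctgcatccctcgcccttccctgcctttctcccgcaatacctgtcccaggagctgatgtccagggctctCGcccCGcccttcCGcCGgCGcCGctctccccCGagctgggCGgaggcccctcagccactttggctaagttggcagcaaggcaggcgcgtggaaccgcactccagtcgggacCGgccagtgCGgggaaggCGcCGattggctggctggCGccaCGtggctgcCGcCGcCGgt
Their places in mm9 were chr6:52210875-52211124 for Hoxa13 and chr6:52158672-52158921 for Hoxa6, both on the minus strand. On the plus strand they were chr2:74529698-74529947 for Hoxd10, chr2:74535570-74535819 for Hoxd9, chr2:74520130-74520379 for Hoxd11 and chr2:74600787-74601036 for Hoxd1.

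In Hoxa13, Hoxd11 and Hoxd1 the covered CpGs were higher in iPSC-DA than in mdDA neurons on average, while in Hoxa6 and Hoxd9 the means lay close together. In Hoxa13, 8 of the 35 CpGs in the sequence were covered, between bases -46 and -1 from the start. Their 9 measured strand positions were between 26.1% and 45.8% in iPSC-DA neurons, with a mean of 41.7%. In mdDA neurons they were between 0% and 19.5%, with a mean of 2.73%, and in iPSCs between 0% and 16.0%. The ranges of iPSC-DA and mdDA neurons did not overlap, in a start shown because its difference was the largest in HoxA. The share of all promoters without overlap is not given here, so this only describes Hoxa13. In Hoxd1, 17 of 24 CpGs were covered, and their 21 positions had means of 4.63% in iPSCs, 24.8% in NESTIN-GFP precursors, 40.7% in iPSC-DA and 5.15% in mdDA neurons. In Hoxd11, 12 of 20 CpGs were covered, with means of 3.07%, 28.9%, 58.9% and 3.69% in the same order. In iPSC-DA neurons its bases -52, -46 and -42 were at 100% on 19 or 20 calls each. Its other positions there were between 41.2% and 53.5%. In Hoxa6 the 11 covered CpGs, which lie in the low stretch, had means of 3.50%, 1.35%, 7.44% and 4.67%, and at bases -196 and -128 mdDA neurons were the higher of the pair. Only 3 CpGs of Hoxd10 and 2 of Hoxd9 were covered, too few to describe the promoter.

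Levels at starts are pooled calls over the positions each library covers within 1 kb, so the positions differ between libraries. Hoxa13, one of the most posterior genes of its cluster and needed for digits and the urogenital tract, was at 3.76% in iPSCs, 18.4% in NESTIN-GFP precursors, 43.4% in iPSC-DA and 5.20% in mdDA neurons. Hoxa11, which with Hoxd11 shapes the forearm and kidney, was at 5.23%, 15.1%, 31.2% and 7.34% in the same order. Hoxa6, a gene of the thoracic region, was at 11.4%, 21.2%, 21.3% and 7.62%. In HoxA the level in iPSC-DA neurons was thus lowest at Hoxa6, whose upstream side lies in the low stretch, and highest at Hoxa13.

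In HoxD the largest difference was at Hoxd10, which helps to set the identity of lumbar motor neurons. It was at 4.82% in iPSCs, 15.4% in NESTIN-GFP precursors, 55.4% in iPSC-DA (53.4 to 57.4) and 4.54% in mdDA neurons. Hoxd1, the most anterior gene of the cluster by position, was at 4.30%, 21.3%, 43.6% and 5.48%. Hoxd11 was at 4.42%, 17.1%, 43.3% and 5.80%. Hoxd12 was at 13.1%, 48.9%, 45.2% and 10.0%. The precursors were read at 57 positions there and iPSC-DA neurons at 37, and over positions shared with iPSCs they exceeded iPSCs by 31.5 and 32.2 points. Hoxd9, a limb and lumbar patterning gene, was at 5.63%, 4.98%, 9.49% and 6.06%. Hoxd3, which patterns the upper neck vertebrae, was at 3.38%, 8.11%, 5.56% and 5.19%, over 20 positions or fewer in each library. No placed Hox start was at 20% or more in iPSCs or mdDA neurons, and none was higher in mdDA than in iPSC-DA neurons.

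**Figure D4:**
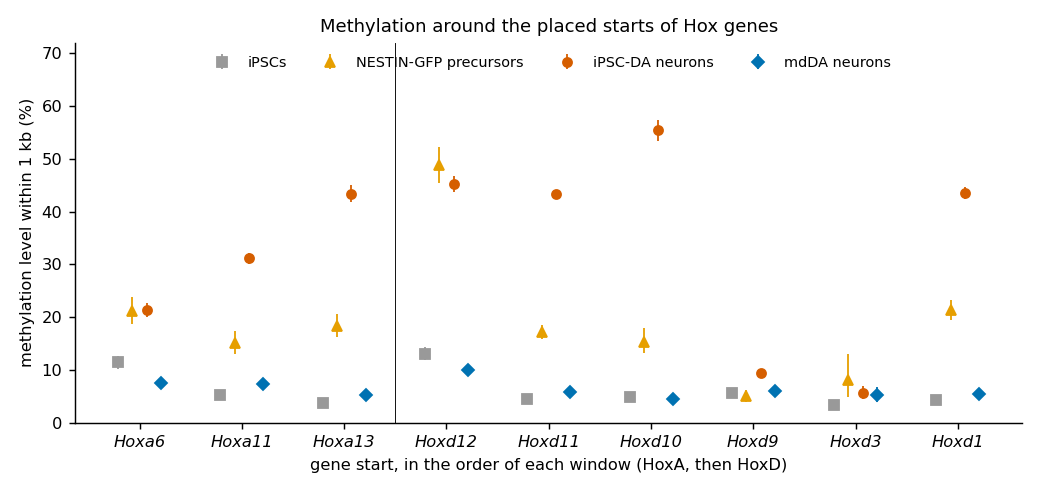
Methylation level in percent over the CpG positions within 1 kb of each placed Hox start, in the order of each window, for the 4 libraries, with Wilson 95% intervals. Hoxd9 and Hoxd3 were under 10% in all 4 libraries, while the other 7 starts stood between 21.3% and 55.4% in iPSC-DA neurons and at 10.0% or less in mdDA neurons.

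By the same test and threshold over all placed starts, 5 of the 7 Hox starts placed on their chromosome were called higher in iPSC-DA than in mdDA neurons, with 17.4% of all 8267 starts tested called, and none lower, with 0.0968% of all. The 5 were Hoxa13, Hoxd1, Hoxd10, Hoxd11 and Hoxd12, while Hoxa6 differed by 13.7 points and Hoxd9 by 3.30 points. Against iPSCs, 5 were higher in iPSC-DA neurons, with 19.6% of all called, and none lower, with 0.0483% of all. NESTIN-GFP precursors were called higher than iPSCs at 1, Hoxd12, by 31.5 points, with 16.1% of all called, and lower at none, with 0.0124% of all. mdDA neurons were called neither higher than iPSCs at any Hox start, with 1.69% of all called, nor lower, with 0.0967% of all. With 7 starts in 2 clusters these counts describe few genes, and starts in 1 cluster are not independent.

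Other genes with a start inside the windows were read near members whose own starts were not placed. Hoxb3os, an antisense gene whose start falls within Hoxb2, was at 4.62% in iPSCs, 16.0% in NESTIN-GFP precursors, 41.7% in iPSC-DA and 5.48% in mdDA neurons, called higher by 35.9 points against mdDA neurons. Gm38462, at its start within Hoxd8, was at 3.72%, 2.71%, 4.44% and 5.01%, and was not called. Gm36878, placed in the window search alone, was at 4.03%, 5.58% and 6.52% in iPSCs, iPSC-DA and mdDA neurons. NESTIN-GFP precursors were at 24.4% over 23 positions, but over the 10 positions shared with iPSCs they exceeded these by 2.67 points. The start of Gm36878 falls within Hoxc9 and between the borders of the low HoxC stretch. The positions read around this start include part of the last run of that stretch. Its low level in iPSC-DA neurons is therefore not evidence separate from the stretch.

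Of 44 other genes of the Hox pathway, 19 had a placed start, and 5 of their 22 starts were called higher in iPSC-DA than in mdDA neurons, beside 17.4% of all starts. None of the 3 placed cofactors, Pbx2, Meis1 and Meis3, was called between iPSC-DA and mdDA neurons, and all were under 10% in both. Of 5 placed upstream regulators and retinoic acid genes, 1 was called higher in iPSC-DA neurons, Aldh1a2, which makes retinoic acid. It was at 3.63% in iPSCs, 14.5% in NESTIN-GFP precursors, 37.6% in iPSC-DA and 4.53% in mdDA neurons. All 3 placed homeobox genes related to the clusters were called higher. Gsx1, a gene of the sister ParaHox cluster, was at 44.0% in iPSC-DA and 6.70% in mdDA neurons, Mnx1, the motor neuron gene, at 36.5% and 6.37%, and Gbx2, a hindbrain gene, at 37.4% and 5.32%.

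Of 8 placed Polycomb and trithorax genes, whose products keep Hox genes silent or active, 1 of 2 starts of Phc2 was called, at 35.5% in iPSC-DA and 5.72% in mdDA neurons. Cbx7 was at 16.6% and 3.49%, a difference of 13.2 points over the positions covered in both that was not called. The starts of Ezh2, Suz12, Bmi1, Ring1, Rnf2 and Kmt2a were between 3.85% and 7.33% in iPSC-DA neurons. Against iPSCs, NESTIN-GFP precursors were called higher at 5 of the 22 starts, those of Meis1, Egr2 (2 starts), Rarb and Ring1, beside 16.1% of all starts. The 2 starts of Egr2 had identical values, as had the 2 placed starts of Rara, so the 22 starts are not 22 separate readings. No start of the list was called lower in any comparison, and none was called between mdDA neurons and iPSCs. The list was compiled with earlier results of these data known.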

How the data were processed

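RRBS libraries of 4 groups, with 1 library each, were taken as deposited: per CpG position and strand, the methylated and unmethylated call counts and the percent methylation that the authors derived from them. The submitters' processing notes name FastQC, Trim Galore 0.3.5 and Bismark 0.10.1. The genome build is not given in the sources used here, and chromosome lengths fit mm9. RRBS reads only DNA near MspI sites, bisulfite does not separate methylcytosine from hydroxymethylcytosine, and the study's expression arrays were not analysed here. Mean calls per listed position were 31.0 in iPSCs, 12.3 in NESTIN-GFP precursors, 59.9 in iPSC-DA and 51.1 in mdDA neurons, so the precursors are the least precise.

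Levels of clusters are means over positions with at least 5 calls in every library used, and levels of runs and starts are pooled calls over the positions with at least 5 calls in that library. Runs and starts (positions within 1 kb) were compared by two-sided Fisher's exact test on pooled call counts with Benjamini-Hochberg adjustment over all runs or all placed starts, and called at an adjusted p under 0.05 with a difference of at least 20 points. Calls on 1 read are linked, which makes these p-values too small. Starts were placed where the CpGs of the RefSeq promoter explained at least 8 listed positions and at least 90% of those within it, with a runner-up score of at most 0.5 of the best. Gene order came from RefSeq (GRCm38.p6). Named runs were the largest difference in each direction per cluster among runs holding 20 positions or more read 10 times or more in both, and any run at 20% or more in iPSCs or mdDA neurons. Named starts were the 2 largest and 2 smallest differences per cluster, and Hoxd11 and Hoxd12 are given beyond that rule, chosen after their values were seen. The Hox genes, the pathway list and the rules were chosen with earlier results of these data known. Scripts used Python 3.11.15, numpy 2.4.6 and scipy 1.17.1 and were tested on simulated data. Alternatives changed the depth minimum, strand merging, pooling, coverage limit, thinning, difference threshold, run length and gap, window around starts, placement and bin size.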

Additional observations from a re-analysis of the deposited data

How the results depend on the processing

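No paired analysis was possible because each group had 1 library. With 1 library per group, differences between the libraries and between the conditions cannot be told apart. Of the main values recomputed under the alternatives, 156 stayed within the limits set for them, 24 moved and 0 reversed. The mean excess of NESTIN-GFP precursors over iPSCs in the Hox windows, 17.3 points, was 13.8 at a minimum of 10 calls, 24.6 at 1 call and 12.1 in runs alone. Hox runs called higher in iPSC-DA neurons were 62 of 85 against either library. They were 97 of 151 with runs of at least 5 positions and 34 of 46 with at least 20, which changes how many runs there are. Of all runs, 23.9% and 26.6% were called at these lengths against mdDA neurons, and 37.7% and 28.7% against iPSCs. The percent of all runs called against mdDA neurons, 27.6, was 18 at 30 points, where 48 of 85 Hox runs were called. For NESTIN-GFP precursors against iPSCs, the 15 of 76 Hox runs became 30 at 10 points, 8 at 30 points and 39 on the logit scale. At 1 call they became 28 of 98. They were 34 of 119 with runs of at least 5 positions and 6 of 46 with at least 20. The percent of all runs, 21.3, became 28.3 at 1 call, 36.5 at 10 points, 14 at 30 points and 45.5 on the logit scale. It was 36.5 with runs of at least 5 positions and 9.84 with at least 20. For mdDA neurons against iPSCs, 0 Hox runs became 1 with runs of at least 5 positions, where the percent of all runs, 6.75, became 16.8, and 1.99 with at least 20. The 1 Hox start called in the precursors became 2 within 500 bp and 6 at 10 points. Where run length or threshold does not set them, the cause was not tested. Adding the starts placed in the window search, chosen after seeing the data, gave 6 of 9 Hox starts higher in iPSC-DA neurons against either library in place of 5 of 7. In the main test 17.4% of all starts were called against mdDA neurons and 19.6% against iPSCs. Depth limits the precursors most, with a median of 14 calls at Hox positions.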
